A study of Mus musculus with 24 samples.

Results

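Interferon response genes, the set of genes that cells switch on when interferon reaches them, were described in progenitors sorted from the blood-forming tissue of normal mice (WT) and Ikaros-deficient mice (KO), 4 populations each. A list of 45 gene symbols was given. A gene counted as measured where a probe set was annotated to that symbol alone, and its brightest probe set over all arrays stood for it, which left 43 of 45 members among 18193 genes. Isg15 and Ifi44 are not analysed here. Members were described as log2 signal, so a difference of 1 is a doubling.

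Type I interferons bind a receptor made of Ifnar1 and Ifnar2 and act through JAK kinases and a complex of STAT proteins with Irf9, which binds a DNA element called the interferon-stimulated response element (ISRE). Interferon gamma acts through its own receptor and a second element, the gamma-activated sequence (GAS). Many of the induced genes encode antiviral proteins, and in bone marrow interferons are known to act on stem cells.

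Each population had 3 arrays per genotype, 24 in all. LSK cells carry Kit and Sca-1 and LK cells carry Kit, both without lineage markers, and each gate was split by a green fluorescent reporter based on Ikaros. By the labels, stem cells (HSC) are LSK GFPneg-lo and lymphoid-primed progenitors (LMPP) are LSK GFPhi. Progenitors of megakaryocytes and red cells (MEP) are LK GFPneg, and those of granulocytes and monocytes (GMP) are LK GFPhi. All groups carried the B-p-GFP-C reporter, a line on C57BL/6 x C3H, and the KO groups also carried the Ikaros null alleles of the I74 line, on C57BL/6 x 129SV. Strain and genotype cannot be told apart, and neither the ages nor whether an array held 1 animal or a pool is given in the sources used here. The p-values therefore measure the spread between these arrays. Arrays of a group correlated at r = 0.979 to 0.996 across genes.

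The genotypes were checked on Ikzf1, which encodes Ikaros. It lay between 10.99 and 11.99 on the 12 WT arrays and between 6.51 and 8.88 on the 12 KO arrays, without overlap. Eif2s3y, a gene of the Y chromosome, ranged from 7.88 to 10.40 on WT arrays and from 3.99 to 8.33 on KO arrays, and counts with it as a covariate are given below. The labels name no sex, and since this gene moved with genotype, sex and genotype cannot be fully told apart. Markers of the sorted populations also moved with genotype. In LSK GFPhi, 8 of 8 early lymphoid markers were lower and 4 of 7 stem cell markers higher in KO cells, and in LK GFPhi 7 of 8 were lower and 4 of 7 higher. In LSK GFPneg-lo 1 of 8 early lymphoid markers was lower and 2 of 7 stem cell markers higher. Of 8 markers of granulocyte and monocyte progenitors, 3 were higher in LSK GFPneg-lo and 4 in LSK GFPhi, where their mean was 8.92 to 9.30 and 10.44 to 10.64 on WT arrays against 9.63 to 10.41 and 11.54 to 11.66 on KO arrays. Of 8 markers of megakaryocyte and erythroid progenitors, 4 were higher in LK GFPhi, where their mean was 7.83 to 8.10 on WT arrays and 8.70 to 9.60 on KO arrays. In LK GFPneg none of these 4 lists had a called marker. Their part in the results was not tested. Fewer cells of a type and less RNA per cell cannot be told apart in such bulk samples.

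RefSeq promoter windows (GRCm38.p6, 250 bases before to 50 bases after a gene's start) were matched by symbol for 33 of the 43 members. No window was matched for Oas2, Dhx58, Zbp1, Usp18, Parp9, Parp14, Mx1, Mx2, Iigp1 and Rtp4. The ISRE core was searched as GAAA, any 2 bases and GAAA, on both strands, and the GAS core as TTC, any 3 bases and GAA, which reads the same on both strands. An ISRE core was in the windows of 14 of 33 members (42.4%), against 524 of 14453 array genes with a window (3.63%). A GAS core was in 9 of 33 members (27.3%), against 8.57% of array genes. Both were found in 4 members and overlapped in 2. The ISRE core was in 4 of 10 members with a window that were lower in KO cells of at least 1 population and in 10 of 23 of the others. A match describes the letters of the window only.

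The windows of 3 members that were lower in KO cells, and the matches of the 1 member that was higher in several populations, are shown, 5′ to 3′ on the gene's strand, with ISRE cores in capitals. Ifit1 is at chr19:34640639-34640888 (plus strand), Ifit3 at chr19:34583279-34583528 (plus strand) and Rsad2 at chr12:26456453-26456702 (minus strand), each the 250 bases before the start. The Ifitm3 stretch at chr7:141010716-141010742 (minus strand) lies just after the start.
Ifit1: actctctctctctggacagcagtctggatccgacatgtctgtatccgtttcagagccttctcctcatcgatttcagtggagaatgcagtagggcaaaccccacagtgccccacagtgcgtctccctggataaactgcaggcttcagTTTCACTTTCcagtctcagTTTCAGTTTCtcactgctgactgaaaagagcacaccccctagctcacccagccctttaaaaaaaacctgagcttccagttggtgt
Ifit3: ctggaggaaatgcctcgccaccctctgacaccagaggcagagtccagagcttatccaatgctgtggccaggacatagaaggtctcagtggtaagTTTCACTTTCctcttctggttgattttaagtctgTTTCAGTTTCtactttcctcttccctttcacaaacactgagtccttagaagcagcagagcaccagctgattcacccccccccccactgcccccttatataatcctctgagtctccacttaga
Rsad2: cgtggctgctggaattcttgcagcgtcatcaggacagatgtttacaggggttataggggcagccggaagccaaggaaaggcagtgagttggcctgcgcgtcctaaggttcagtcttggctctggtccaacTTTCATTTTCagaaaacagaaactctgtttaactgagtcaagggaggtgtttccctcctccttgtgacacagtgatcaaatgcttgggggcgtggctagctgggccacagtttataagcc
Ifitm3: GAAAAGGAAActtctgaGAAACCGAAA
Ifit1 and Ifit3 held the same pair of cores in the same order, TTTCACTTTC and then TTTCAGTTTC.

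In WT cells, members were brightest in the LSK populations. The mean over the 43 members was 9.61, 9.50 and 9.76 on the arrays of LSK GFPneg-lo and 9.39, 9.37 and 9.96 on those of LSK GFPhi. It was 8.60, 8.79 and 8.89 in LK GFPneg and 8.64, 8.93 and 8.95 in LK GFPhi. All 6 LSK arrays thus lay above all 6 LK arrays. The highest WT mean was in LSK GFPneg-lo for 19 members, LSK GFPhi for 18, LK GFPneg for 4 and LK GFPhi for 2.

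KO arrays had lower means in every population. They were 9.18, 9.11 and 8.94 in LSK GFPneg-lo, 8.84, 8.97 and 8.93 in LSK GFPhi, 8.29, 8.61 and 8.28 in LK GFPneg and 8.42, 8.64 and 8.70 in LK GFPhi. The genotypes did not overlap in the LSK populations. In LK GFPneg the brightest KO array (8.61) lay just above the dimmest WT array (8.60), and in LK GFPhi the brightest KO array (8.70) lay above the dimmest WT array (8.64).

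**Figure D1:**
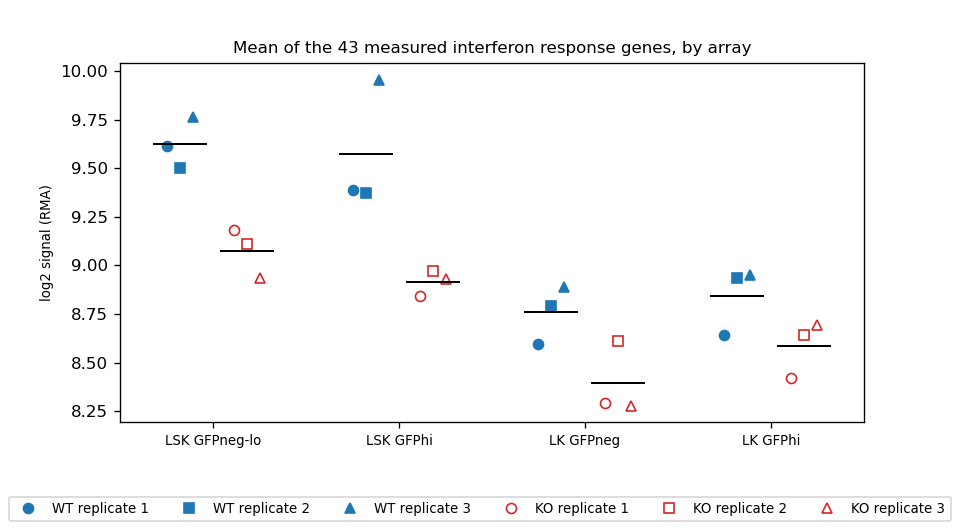
Mean log2 signal of the 43 members on each array, by population, with 3 WT and 3 KO arrays each. KO arrays lie below WT arrays in both LSK populations, and WT LSK GFPhi replicate 3 (9.96) is the highest of the 24.

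Differences are KO minus WT with the standard error of limma (n = 3 against 3 arrays). Genes with a Benjamini-Hochberg adjusted p under 0.05, over all genes, were called. The 4 KO comparisons ask what differs with the loss of Ikaros in each population. In LSK GFPneg-lo, 6 of 43 members were called lower and 0 higher, where 0.879% of all genes were called lower and 1.26% higher. Of the 43, 41 lay below 0 (40.9% of all genes), with a median of -0.42 against 0.03 over all genes, and 20 had KO arrays all below WT arrays (5.38% of all genes). In LSK GFPhi, 13 were called lower and 1 higher, against 1.69% and 2.91% of all genes. There 40 lay below 0, the median was -0.49, and 27 had KO arrays all below WT arrays (6.82% of all genes).

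In LK GFPneg, 6 were called lower and 1 higher, against 1.45% and 1.2% of all genes, with a median of -0.35, and 14 had KO arrays all below WT arrays (5.61% of all genes). In LK GFPhi, 5 were called lower and 2 higher, against 3.79% and 5.78%, with a median of -0.24, and 10 had KO arrays all below WT arrays (7.74%). Across populations, 28 of 43 members lay below 0 in all 4, as did 10.5% of all genes, and 26 of 43 (60.5%) were called lower in none, against 94.1% of all genes. The labels name no pairing, and the fit above used none. By correlated residuals, the replicate numbers were taken to pair the arrays in LSK GFPneg-lo, LK GFPneg and LK GFPhi. With the number as a block 11, 11 and 12 members were called there. The calls over all genes also increased, from 2.14%, 2.65% and 9.56% to 4.64%, 4.88% and 22.2% of genes. With Eif2s3y as a covariate 2, 4, 0 and 1 members were called lower and 0, 0, 1 and 2 higher in the 4 populations in the order above, where 1.15%, 2.74%, 1.15% and 7.28% of all genes were called in either direction, with members' medians of -0.32, -0.38, -0.17 and -0.17.

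The counts changed when single arrays were left out. WT LSK GFPhi replicate 3 was the highest of its group for 32 of 43 members, against 30.4% of all genes, and without it 8 members were called in place of 14. Arrays numbered 3 were the highest WT array for 21, 28 and 21 members in LSK GFPneg-lo, LK GFPneg and LK GFPhi, against 27.4%, 31.3% and 27.2% of all genes. Among KO arrays, LK GFPneg replicate 2 was the highest of its group for 30 members, against 47.0% of all genes. Without WT replicate 3, 2 members were called in LSK GFPneg-lo, both lower, 1 in LK GFPneg, which was higher with 0 lower, and 2 in LK GFPhi, 1 in each direction. These settings called 1.45%, 1.61% and 5.83% of all genes. Other arrays also moved the counts by over 1.5 times. In LSK GFPneg-lo 3 members were called without WT replicate 1, KO replicate 2 or KO replicate 3. In LSK GFPhi 9 were called without KO replicate 1. In LK GFPneg 4 were called without WT replicate 2, 2 without KO replicate 1 and 3 without KO replicate 3. The 4 WT arrays numbered 3 were also left out together, a choice made after seeing the data. Then 4, 8, 1 and 4 members were called in either direction in LSK GFPneg-lo, LSK GFPhi, LK GFPneg and LK GFPhi. The share of all genes called in that setting is not given here. Of the 34 calls of members in the 4 KO comparisons, 8 were kept under every alternative run and 26 were lost under at least 1.

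**Figure D2:**
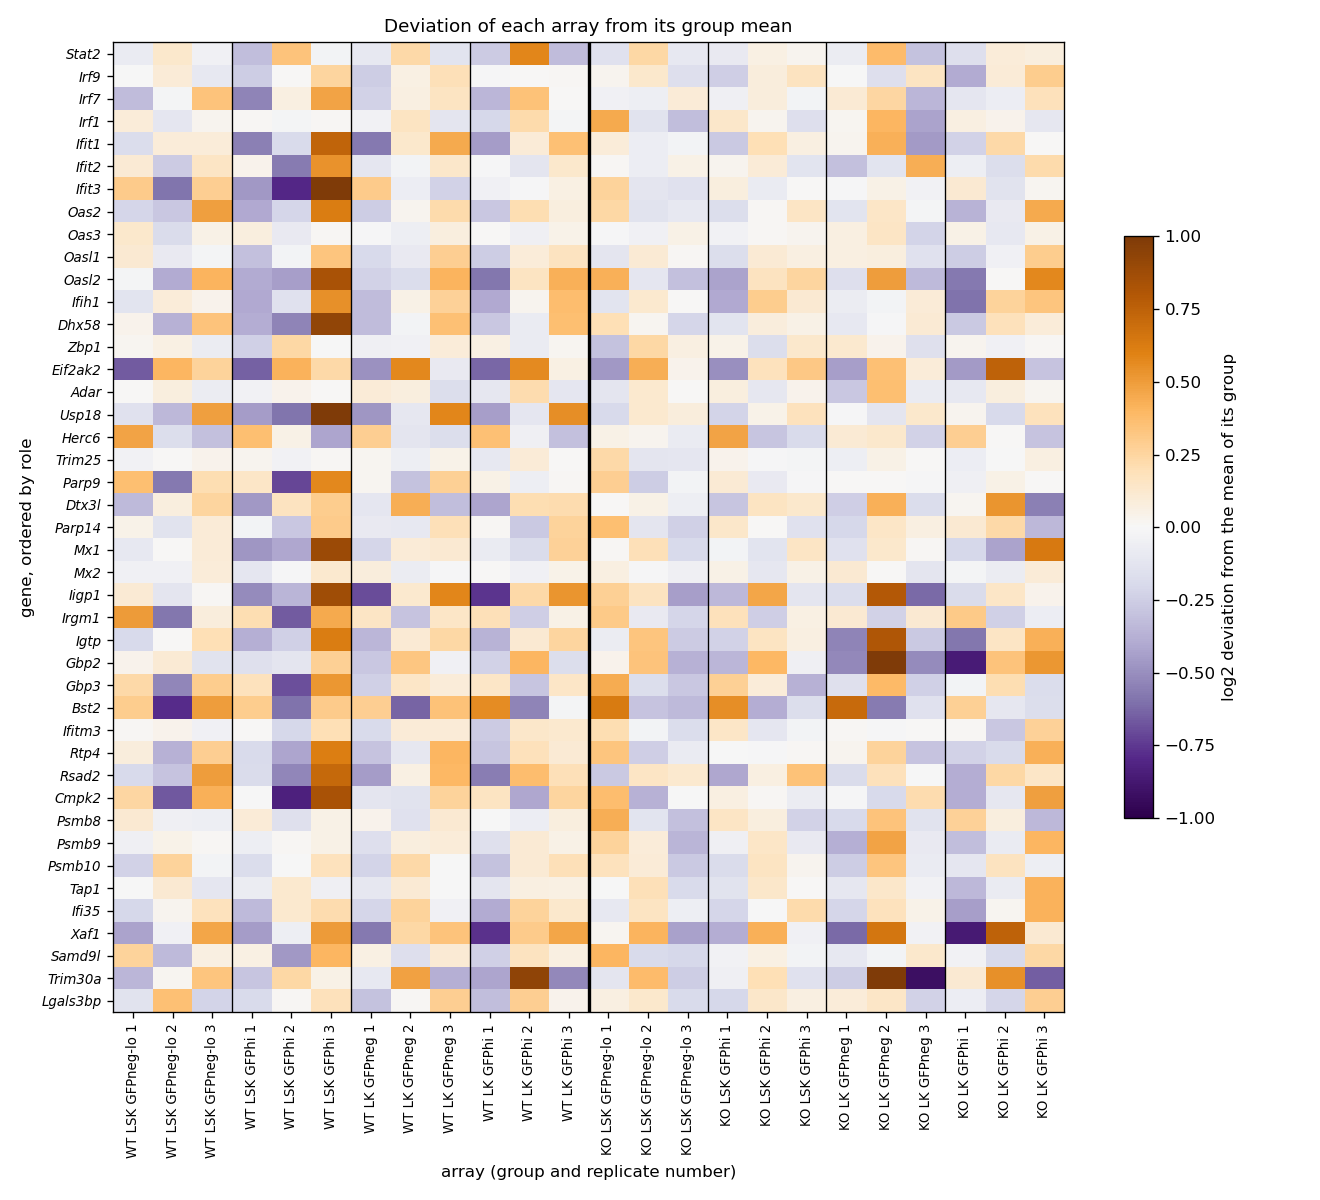
Deviation of each array from the mean of its own group (log2, colour) for each member, in rows ordered by role. Many members are high together on WT LSK GFPhi replicate 3, where 32 of 43 are the highest of the 3 arrays.

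The receptor transporter gene Rtp4 and the interferon-inducible GTPase gene Iigp1, which acts against parasites inside cells, were called lower in all 4 populations. Rtp4 in LSK GFPhi was 10.96, 10.73 and 11.76 on WT arrays and 9.42, 9.41 and 9.43 on KO arrays. The KO arrays were nearly equal and all lay below the WT arrays. The difference was -1.74 ± 0.25 (adjusted p = 0.000156), and in LSK GFPneg-lo, LK GFPneg and LK GFPhi it was -1.48 ± 0.25, -0.999 ± 0.25 and -0.83 ± 0.25. The calls in the LK populations were each lost under 9 of 18 alternatives. A second, dim probe set of Rtp4 gave -0.79, -0.33, -0.14 and -0.06 in the order LSK GFPneg-lo, LSK GFPhi, LK GFPneg, LK GFPhi.

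Iigp1 in LSK GFPhi was 9.70, 9.85 and 11.08 on WT arrays and 7.38, 8.18 and 7.60 on KO arrays. The lowest WT array lay well above the highest KO array. The difference was -2.49 ± 0.41, a 5.64-fold drop (adjusted p = 0.000464). It was -1.74 ± 0.41 in LSK GFPneg-lo, -1.53 ± 0.41 in LK GFPneg and -1.74 ± 0.41 in LK GFPhi. The call in LK GFPneg (adjusted p = 0.048) was lost under 8 of 18 alternatives, that in LSK GFPneg-lo under 6 and that in LK GFPhi under 2. A second probe set of Iigp1 gave -2.06, -2.05, -0.62 and -0.70 in the order given for Rtp4.

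**Figure D3:**
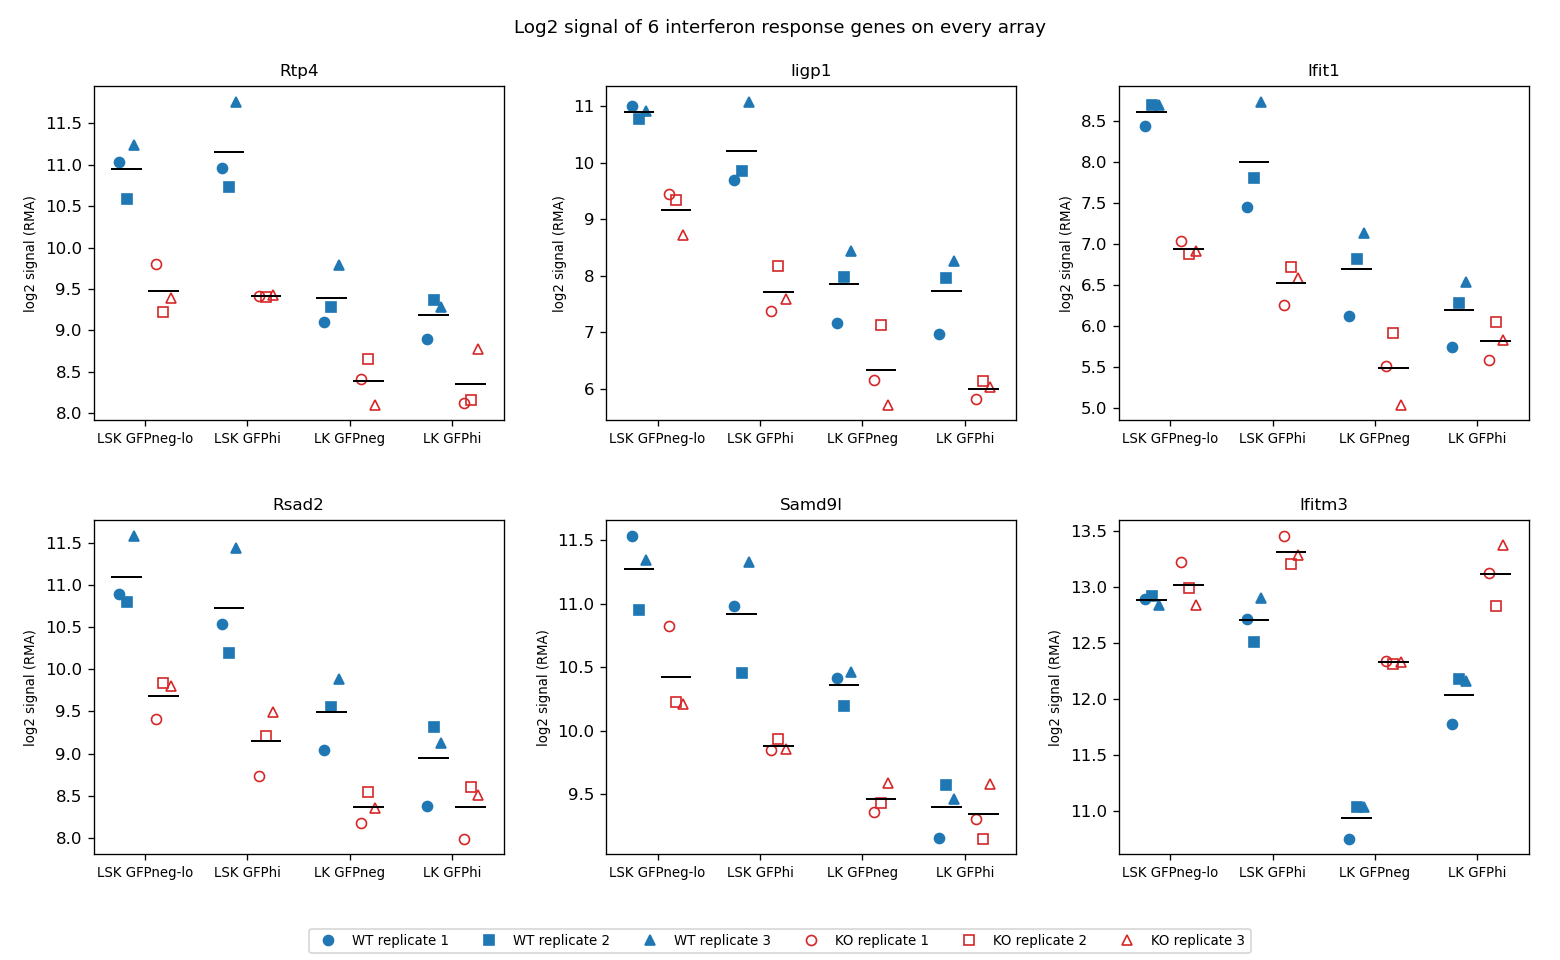
Log2 signal of 6 members on every array, by population and genotype (points are arrays, marker shapes are replicate numbers). Rtp4 and Iigp1 are lower on KO arrays in all 4 populations.

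Among the transcription factors, Irf7, which drives type I interferon production, and Irf9, part of the factor that binds the ISRE, were called lower in LSK GFPhi. Irf7 there was 8.08, 8.69 and 9.09 on WT arrays and 7.49, 7.62 and 7.51 on KO arrays. The groups did not overlap, and the difference of -1.08 ± 0.22 (adjusted p = 0.00437) was called under each of the 18 alternatives. Irf9 was 9.17, 9.44 and 9.68 on WT arrays and 8.51, 8.83 and 8.92 on KO arrays, also without overlap. It was called at -0.68 ± 0.16 there and at -0.62 ± 0.16 in LK GFPhi, each call lost under 6 of 18 alternatives. Irf1, induced by interferon gamma, and Stat2, the partner of Irf9, were not called in any population, with differences between -0.47 and 0.22.

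The Ifit genes encode proteins that bind foreign RNA. Ifit1 in LSK GFPneg-lo was 8.44, 8.70 and 8.70 on WT arrays and 7.04, 6.88 and 6.92 on KO arrays. All KO arrays lay below all WT arrays, with a difference of -1.67 ± 0.30 (adjusted p = 0.00252). Ifit1 was also called in LSK GFPhi (-1.48 ± 0.30) and LK GFPneg (-1.21 ± 0.30, lost under 7 of 17 alternatives), and was -0.37 in LK GFPhi without a call. Ifit3 was called in LSK GFPhi alone (-1.43 ± 0.34), where WT replicate 3 stood at 8.69 and the other WT arrays at 6.97 and 6.63, above KO arrays at 6.07, 5.92 and 6.01. Without that array it was -0.80, still called (adjusted p = 0.0387), and the call was lost under 4 of 17 alternatives.

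The OAS family is named for enzymes that make the signal for RNase L. Oas2 in LSK GFPneg-lo was 9.51, 9.45 and 10.22 on WT arrays and 8.96, 8.58 and 8.62 on KO arrays, without overlap, and was called at -1.01 ± 0.25, a call lost under 7 of 18 alternatives. Oasl1 was called in LSK GFPhi (-0.72 ± 0.17) and LK GFPneg (-0.73 ± 0.17), each call lost under 5 of 18 alternatives. In LK GFPneg it was 8.05, 8.16 and 8.54 on WT arrays and 7.58, 7.59 and 7.37 on KO arrays. Oasl2 and Oas3 were called in no KO comparison. Among the 5 RNA and DNA sensors none was called in any population. Dhx58, a regulator of RNA sensing, had differences of -0.69, -0.80, -0.64 and -0.65 in the order given for Rtp4. Its other probe sets, dim ones, lay between -0.08 and 0.19. Usp18, which removes Isg15 from proteins and damps the receptor, was called in LSK GFPhi (-1.53 ± 0.35), and there its WT arrays were 8.08, 7.94 and 9.58 against 6.78, 7.05 and 7.18 on KO arrays. Without WT replicate 3 the Usp18 difference was -1.01 with an adjusted p of 0.0625.

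Rsad2, which encodes the antiviral enzyme viperin, was called in both LSK populations, at -1.41 ± 0.31 and -1.58 ± 0.31, calls lost under 4 and 1 of 18 alternatives. In LSK GFPneg-lo it was 10.90, 10.80 and 11.59 on WT arrays and 9.41, 9.84 and 9.80 on KO arrays. A second probe set gave -1.34 in LSK GFPneg-lo and -1.64 in LSK GFPhi. Another, dim probe set of Rsad2 gave -0.20 and -0.09 there. Its neighbour Cmpk2, a mitochondrial nucleotide kinase gene, was called in LSK GFPhi (-1.34 ± 0.34), at 8.89, 8.07 and 9.73 on WT arrays and 7.62, 7.56 and 7.48 on KO arrays. WT replicate 3 was again the highest, and without it the difference was -0.93 (adjusted p = 0.163). The Cmpk2 call was lost under 8 of 18 alternatives, and a second, dim probe set gave -0.03 there. Mx1 (-1.20 ± 0.28) and Mx2 (-0.32 ± 0.09), antiviral GTPase genes, were called there too, with Mx2 losing the call under 10 of 18 alternatives. Mx1, a dim probe set, was 5.54, 5.60 and 6.90 on WT arrays and 4.78, 4.69 and 4.97 on KO arrays, and without WT replicate 3 its difference was -0.75 (adjusted p = 0.0728). Mx2 was 7.10, 7.20 and 7.33 against 6.95, 6.79 and 6.94. Samd9l, a growth and antiviral regulator, was called in LSK GFPneg-lo (-0.86 ± 0.20), LSK GFPhi (-1.04 ± 0.20) and LK GFPneg (-0.90 ± 0.20), and was -0.05 in LK GFPhi. In LSK GFPhi it was 10.98, 10.46 and 11.33 on WT arrays and 9.85, 9.94 and 9.85 on KO arrays, without overlap, and its call there was kept under 17 of 18 alternatives and lost without the 4 WT arrays numbered 3. The calls in LSK GFPneg-lo and LK GFPneg were lost under 7 and 5 of 18. Xaf1, which promotes cell death, was between -0.80 and -1.43 in the 4 populations and was called in none. Its KO arrays in LK GFPhi were spread widely, at 7.27, 8.89 and 8.25. A second, dimmer probe set of Xaf1 gave -0.29, -0.36, 0.06 and 0.35 in the order given for Rtp4.

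The guanylate-binding protein gene Gbp3 was called in LK GFPhi alone. Its WT arrays were 11.76, 11.33 and 11.76 and its KO arrays 10.23, 10.46 and 10.07, and the difference of -1.36 ± 0.28 (adjusted p = 0.00379) was called under each of 18 alternatives. Parp9, a gene of the PARP family, was called there at -0.86 ± 0.25, with WT arrays at 9.83, 9.72 and 9.79 and KO arrays at 8.87, 8.97 and 8.92. The groups did not overlap, and the call was lost under 8 of 18 alternatives, among them each of the 6 single arrays left out. Of the antigen processing genes, the immunoproteasome subunit gene Psmb8 was called in LK GFPneg (-0.74 ± 0.18), with WT arrays at 10.53, 10.35 and 10.61 and KO arrays at 9.55, 10.09 and 9.62. Its call was lost under 8 of 18 alternatives. A second probe set of Psmb8 gave -0.11, 0.07, -0.43 and 0.30 in the order given for Rtp4. Psmb9, Psmb10 and the peptide transporter gene Tap1 were called in no population.

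Ifitm3, which blocks the entry of viruses into cells, moved the other way. In LK GFPneg it was 10.75, 11.03 and 11.04 on WT arrays and 12.34, 12.31 and 12.33 on KO arrays. The groups lay far apart, and the difference was 1.39 ± 0.14 (adjusted p = 3.3e-06). It was 1.07 ± 0.14 in LK GFPhi and 0.61 ± 0.14 in LSK GFPhi, both called, and 0.13 in LSK GFPneg-lo. The call in LSK GFPhi was lost under 4 of 18 alternatives. Lgals3bp, a secreted glycoprotein gene, was higher in LK GFPhi (0.67 ± 0.19) and -0.36 in LK GFPneg. In LK GFPhi it was 7.35, 7.95 and 7.70 on WT arrays and 8.28, 8.12 and 8.62 on KO arrays. That call was lost under 7 of 18 alternatives, among them each array centred on its median.

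**Figure D4:**
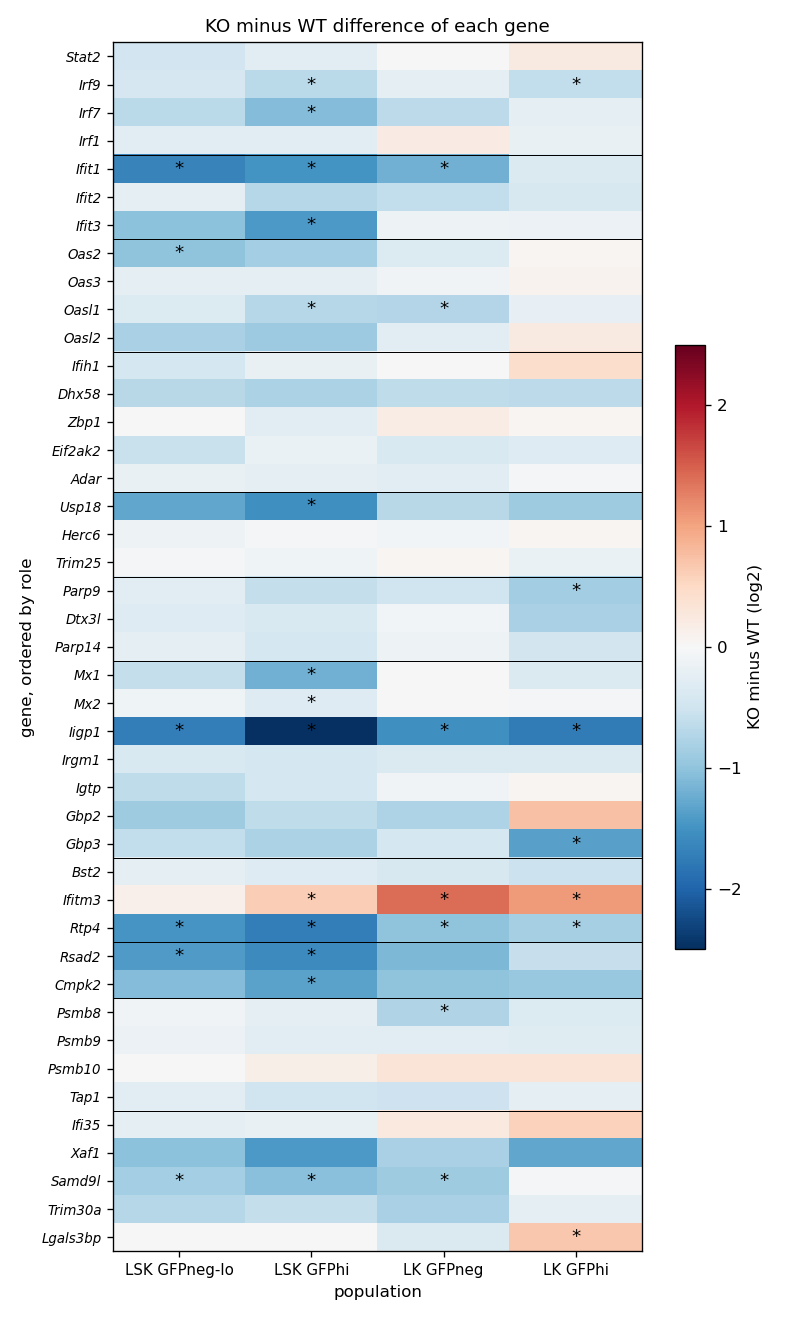
KO minus WT difference (log2, colour) of each member in each population. Most cells are below 0, and Ifitm3 is above 0 in all 4 populations, from 0.13 to 1.39.

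The mean of the 4 KO effects, which uses all arrays, gave 21 members lower and 1 higher, against 6.36% and 9.76% of all genes. This fit took the 24 arrays as independent, while arrays of the same genotype and replicate number had an estimated correlation of 0.327. With genotype and number as a random block, 16 of these 22 calls were kept and 6 were lost. With the populations averaged by genotype and replicate number, 4 were called lower and 1 higher. Iigp1 (-1.88 ± 0.20), Rtp4 (-1.26 ± 0.13), Ifit1 (-1.18 ± 0.15), Samd9l (-0.71 ± 0.10) and Ifitm3 (0.80 ± 0.07) were called in each of these fits. The values are those of the first. The share of all genes called with the averaged populations is not given here. The smaller count is thus not a result about the members alone.

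Whether the KO effect differed between populations of a gate was tested directly. In LSK, 0 of 43 members differed by limma (0.313% of all genes, 1 member at an unadjusted p under 0.05, and 0 with each of its 12 arrays left out in turn). In LK, 1 did, Lgals3bp, whose effect was higher in LK GFPhi by 1.03 ± 0.27 (adjusted p = 0.0441), against 1.7% of all genes higher. The largest estimate, that of Gbp2 (1.496 ± 0.52), did not pass (adjusted p = 0.189).

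The WT populations were compared with each other on the WT arrays that the KO comparisons also use. Between LSK GFPhi and LSK GFPneg-lo, 0 of 43 members were called by limma (4.52% of all genes), 3 at an unadjusted p under 0.05. LK GFPneg against LSK GFPneg-lo had 25 lower and 1 higher, against 14.1% and 13% of all genes. Oasl2 (-3.08 ± 0.37), Iigp1 (-3.04 ± 0.41), Gbp2 (-2.78 ± 0.37) and Irf1 (-2.03 ± 0.18) fell most. LK GFPhi against LSK GFPhi had 15 lower and 0 higher, against 2.53% of all genes lower, and without WT LK GFPhi replicate 1 there were 8.

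Between the LK populations the members did not share a direction. In LK GFPhi against LK GFPneg 7 were higher and 5 lower, against 9.98% and 8.6% of all genes. Gbp3 (2.02 ± 0.28), Irf1 (1.56 ± 0.18) and the 3 immunoproteasome genes Psmb8 (1.498 ± 0.18), Psmb9 (0.96 ± 0.19) and Psmb10 (0.88 ± 0.18) were higher in LK GFPhi. Cmpk2 (-1.35 ± 0.34), the RNA sensor gene Ifih1 (-1.31 ± 0.26) and Samd9l (-0.96 ± 0.20) were lower.

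Other genes of the pathway were taken from lists by role. Of 10 measured interferon ligand genes 0 were called by limma in any KO comparison (0, 0, 0 and 3 at an unadjusted p under 0.05 in the order given for Rtp4), and their mean on an array lay between 5.79 and 6.10. The brightest of them was Ifnz, with group means from 7.58 to 9.15. Of 20 receptor and signalling genes, Socs3, which encodes an inhibitor of cytokine signalling, rose in all 4 populations (1.95 ± 0.35, 2.38 ± 0.35, 1.32 ± 0.35 and 3.45 ± 0.35). The receptor gene Ifngr1 fell in LK GFPneg (-0.92 ± 0.16), and the receptor gene Ifnar1 (-0.48 ± 0.14) and the transcription factor gene Irf8 (-1.32 ± 0.31) fell in LK GFPhi.

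Of 49 further interferon response genes, 4, 8, 3 and 4 fell and 1, 1, 1 and 3 rose in the order given for Rtp4. Those that fell were 8.16%, 16.3%, 6.12% and 8.16% of the list, against 0.879%, 1.69%, 1.45% and 3.79% of all genes. Those that rose were 2.04%, 2.04%, 2.04% and 6.12%, against 1.26%, 2.91%, 1.2% and 5.78%. Ifi27l2a fell in LSK GFPneg-lo (-1.49 ± 0.30), LSK GFPhi (-2.58 ± 0.30) and LK GFPhi (-1.39 ± 0.30), and Gbp6 in both LSK populations (-1.91 ± 0.30 and -2.40 ± 0.30). Slfn9 rose in all 4 (0.96, 1.11, 1.58 and 1.14). Ifitm1, a relative of Ifitm3, fell in LK GFPneg (-2.40 ± 0.21) and rose in LK GFPhi (1.38 ± 0.21). Of 14 MHC class I genes, 0, 1, 1 and 1 fell, and in each case it was H2-M3.

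Markers of other cell types that could lie in these gates were measured on the same arrays. In LSK GFPhi, the mean of 11 plasmacytoid dendritic cell markers was 7.59, 7.97 and 7.63 on WT arrays and 7.29, 7.23 and 7.40 on KO arrays, with 3 of 11 lower in KO cells. Among them is Ccr9, which is also 1 of the 8 early lymphoid markers and was 8.34 on average in WT and 6.52 in KO cells. WT replicate 3, the array with the highest member mean, was not the highest for these markers. Siglech, which marks those cells, is 1 of the 11 and was picked after its values were seen. It lay between 6.54 and 7.02 on all 24 arrays, while the mean of the 11 was lower on every KO array of LSK GFPhi. Of 7 plasma cell markers 4 were lower there, among them Jchain (-4.17 ± 0.44). In LSK GFPneg-lo none of the 11 plasmacytoid dendritic cell markers and none of the 7 plasma cell markers was called, and 6 members were called lower there, where 2 of 7 stem cell markers and 3 of 8 granulocyte and monocyte progenitor markers were higher. The part of these cells in the results was not tested.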

How the data were processed

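The 24 Affymetrix arrays hold RNA from 8 groups of sorted mouse cells. The authors ran RMA (version not given in the sources used), per the submitters' processing notes, and deposited log2 signal (3.33 to 14.5). Of 45101 probe sets, 64 controls and 932 with several symbols were left out, and the brightest of 34945 with 1 symbol stood for each of 18193 genes. Differences were fitted with limma 3.58.1 in R 4.3.3 (8 group means, 16 residual and 3.27 prior degrees of freedom), two-sided, adjusted over all genes, threshold 0.05. The number of arrays limits the precision, and an exact test of 3 against 3 arrays cannot go below 0.1.

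The members and lists were chosen with earlier results of these data known. Every member may be named. Single arrays are given, in at least 1 population, for each member called lower or higher in a KO comparison, and Siglech, Dhx58 and the cell markers were named after their values were seen. Of genes outside the list, up to 4 called genes per list and comparison are named by smallest adjusted p.

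Replicate numbers were taken to pair arrays where the residuals of every same-numbered pair correlated above 0.1. This held for LSK GFPneg-lo (lowest r = 0.276), LK GFPneg (0.359), LK GFPhi (0.175) and the 4 WT comparisons, not for LSK GFPhi (0.0238). The steps were tested on simulated data. In KO against WT in LSK GFPhi, with 18193 genes, 39.6%, 78.3% and 100% of changes of 0.5, 1 and 2 were recovered, with 6.13% false calls. The simulated noise was independent between genes and arrays, while residuals of the real arrays were correlated. These shares hold for independent noise only. Promoter windows are RefSeq's.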

Additional observations from a re-analysis of the deposited data

Results flagged for a closer look

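The KO effect in LK GFPhi minus that in LK GFPneg differed by test for 4 genes. It was 1.03 for the member Lgals3bp, 1.10 for Ifngr1, 2.13 for Socs3 and 3.78 for Ifitm1. Lgals3bp lost its call under median centring, a further quantile normalization, the Eif2s3y covariate and a fit of the compared groups alone, and in all under 13 of 24 alternatives, among them the 4 WT arrays numbered 3 left out and 8 of 12 single arrays left out.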

How the results depend on the processing

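The counts of members called depended on the processing. They are given here without the share of all genes called under each setting. A change in a count is thus not a result about the members alone. Some of these shares, such as those for the Eif2s3y covariate in the 4 populations, are given above. The number as a replicate block gave 11, 11 and 12 in LSK GFPneg-lo, LK GFPneg and LK GFPhi, 1 in WT LSK GFPhi against LSK GFPneg-lo and 2 in the LK interaction, and as a random block 1 and 2 in the last 2. Array weights gave 15 in LSK GFPneg-lo, 14 in LK GFPneg, 1 in the WT LSK comparison and 3 in the LK interaction. Eif2s3y as a covariate gave 2, 4, 1 and 3 in the 4 populations, 8 in the mean effect and 0 in the LK interaction. Fits of the compared groups alone, with fewer arrays, gave 7 in LSK GFPhi, 3 in LK GFPneg, 4 in LK GFPhi, 1 in the WT LSK comparison, 3 in WT LK GFPhi against LSK GFPhi and 0 in the LK interaction. Without the 4 WT arrays numbered 3 (chosen after seeing the data) the counts were 8 in LSK GFPhi, 1 in LK GFPneg, 4 in LK GFPhi, 7 in WT LK GFPhi against LSK GFPhi and 0 in the LK interaction. In the LK interaction, leaving out _x_at and _s_at probe sets gave 2, the mean of a gene's probe sets 2, median centring 0 and quantile normalization 0. Averaging populations by genotype and number gave 5 in the mean effect. Leaving out arrays in turn gave 2 to 6, 8 to 15, 1 to 9 and 2 to 7 in the 4 populations, 22 to 27 in the mean effect, 0 to 1, 21 to 24, 8 to 16 and 11 to 12 in the WT comparisons, 0 to 0 in the LSK interaction and 0 to 2 in the LK interaction. Trim25 in WT LK GFPneg against LSK GFPneg-lo (-0.24) reversed to 0.14 without _x_at and _s_at probe sets and 0.23 with the mean of its probe sets. Median centring shifted LK GFPhi by 0.125. The cause was not tested in these cases. The number of arrays limits the precision, and 38 of 43 members remained when the dimmest 40% of genes were left out.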

Other observations

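Residuals from the group means, which leave the groups' differences out, were set beside the mean residual of the members over the 24 arrays as a description. The median r of a member with the other members was 0.51, from -0.59 for Herc6 to 0.92 for Oasl2, and 23 of 43 members were above 0.5, against a median of 0.02 over all other genes. Genes measured on the same arrays share each array's processing and are not independent. Outside the lists, the genes most like the members were Trim26 (r = 0.87), Brpf3 (0.81), Gbp2b (0.80) and Zfp286 (0.79).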
